A study of Mus musculus with 22 samples.

Results

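The 9 genes described here are keratins and bile duct markers: the hepatocyte keratins *Krt8* and *Krt18*, the keratin *Krt23*, and the duct markers *Krt7*, *Krt19*, *Epcam*, *Cldn7*, *Sox9* and *Cftr*. They were taken by symbol from a table of read counts of 55573 genes, and all 9 were found. The table holds bulk mRNA-seq of whole liver from 22 C57BL/6 mice, 1 library per mouse. FLCN KO mice carry floxed *Flcn* alleles and Albumin-Cre, and Cre mice, the controls, carry wild-type *Flcn* and the same Albumin-Cre, so every group had the recombinase. The albumin promoter drives it in hepatocytes and also in the fetal precursors that hepatocytes share with duct cells, so duct cells can have lost *Flcn* too, which bulk RNA does not show. From 6 weeks of age the mice ate chow with 10 kcal% fat or a methionine/choline deficient (MCD) diet for 6 weeks, and livers were taken at 3 months of age. There were 6 Cre mice on chow, 5 FLCN KO mice on chow, 5 Cre mice on MCD and 6 FLCN KO mice on MCD. The libraries held 13751347 to 21144388 reads assigned to genes, and levels are given as CPM (counts scaled to the library size after TMM normalization), where 1 count was worth 0.0412 to 0.0803 CPM.

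Keratins are filament proteins that pair as a type I with a type II chain, and hepatocytes make 1 such pair, *Krt18* with *Krt8*. Cholangiocytes, the cells that line bile ducts, make these and also *Krt19* with *Krt7*, and they carry adhesion and transport proteins such as EPCAM, claudin 7 and CFTR. In injured liver, duct-like cells can spread out from the portal tracts, which is called a ductular reaction, and stressed hepatocytes can raise their own keratins. In RNA of whole liver a change in the number of cells of a type and a change in RNA per cell cannot be told apart.

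*Flcn* itself was read first as a check of the labels. In Cre livers on chow it had 26.1 to 40.2 CPM (median 31.8), and in FLCN KO livers on chow 16.7 to 24.2 CPM (median 19.96), without overlap. On MCD the Cre livers had 18.2 to 39.9 CPM (median 31.7) and the FLCN KO livers 17.6 to 32.6 CPM (median 26.6), and these overlapped. *Flcn* thus had reads in both genotypes, and its level on MCD did not separate them. The deletion removes only the floxed part of the gene and does not target liver cells of other lineages. Where the remaining reads came from was not tested.

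Of the 22 livers, 3 stood apart in markers of other cells. Cre chow 5 had 50.9 CPM summed over the 6 duct markers, against 11.1 to 16.7 CPM in the other Cre livers on chow. Cre MCD 3 had 1646 CPM summed over 5 skeletal muscle markers, 599 of them from the skeletal actin *Acta1*, against 84.8 CPM in Cre MCD 4, 36.1 in FLCN KO MCD 3, 11.5 in Cre MCD 1 and at most 7.79 in any other liver. FLCN KO MCD 3 had 25.1 CPM summed over 6 exocrine pancreas markers, against 9.89 in Cre MCD 5, 3.37 in Cre MCD 3 and at most 1.21 in any other liver. Results of the 9 genes that rest on one of these livers are given with and without it. For the other gene lists this was done only in part. Of the 9 genes, without FLCN KO MCD 3 *Sox9* on MCD lost its call and the calls of the others were the same. Sex was not in the labels and was read from *Xist* and Y-linked counts: 10 livers were male and 12 female, with 2 or 3 of each sex in every group. Males had at most 19 *Xist* and at least 1906 Y-linked counts, and females at least 5411 and at most 675. The most Y-linked counts in females were 675 in Cre MCD 1 and 451 in FLCN KO chow 2, and their origin was not tested.

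Counts of genes called came from edgeR's quasi-likelihood test at an adjusted p under 0.05 over the 14062 genes whose counts averaged 10 or more, which all 9 genes reached. *Cftr*, with a mean count of 10.6, reached it only through the FLCN KO livers (17.7, against 3.55 in Cre livers), so its genotype difference was partly fixed by that filter. With MCD in Cre mice 5 of the 9 genes were called, all higher (*Krt8*, *Krt18*, *Krt23*, *Krt7* and *Epcam*), where 57.5% of all genes tested were called, 29.3% higher and 28.2% lower. With MCD in FLCN KO mice 3 were called, all higher (*Krt8*, *Krt18* and *Krt23*), against 45.0% of all genes, 22.5% higher and 22.5% lower. With all livers the share of the 9 genes called with MCD was no higher than that of all genes in either genotype. This share adds the higher and the lower calls. The calls in FLCN KO mice were of genes also called in Cre mice, so 5 genes were called with the diet in all. Between genotypes on chow 1 was called, *Cftr*, higher in FLCN KO livers, against 8.62% of all genes, 5.52% higher and 3.10% lower. On MCD 4 were called, *Krt8* and *Krt18* lower and *Sox9* and *Cftr* higher in FLCN KO livers, against 16.6% of all genes, 8.06% higher and 8.53% lower. The interaction, the difference between genotypes in the diet response, was called for 2, *Krt8* and *Krt18*, both with a smaller response in FLCN KO mice, against 8.83% of all genes, 3.29% with a positive and 5.54% with a negative value. The plot of fold changes gives all 9 genes with their errors.

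**Figure D1:**
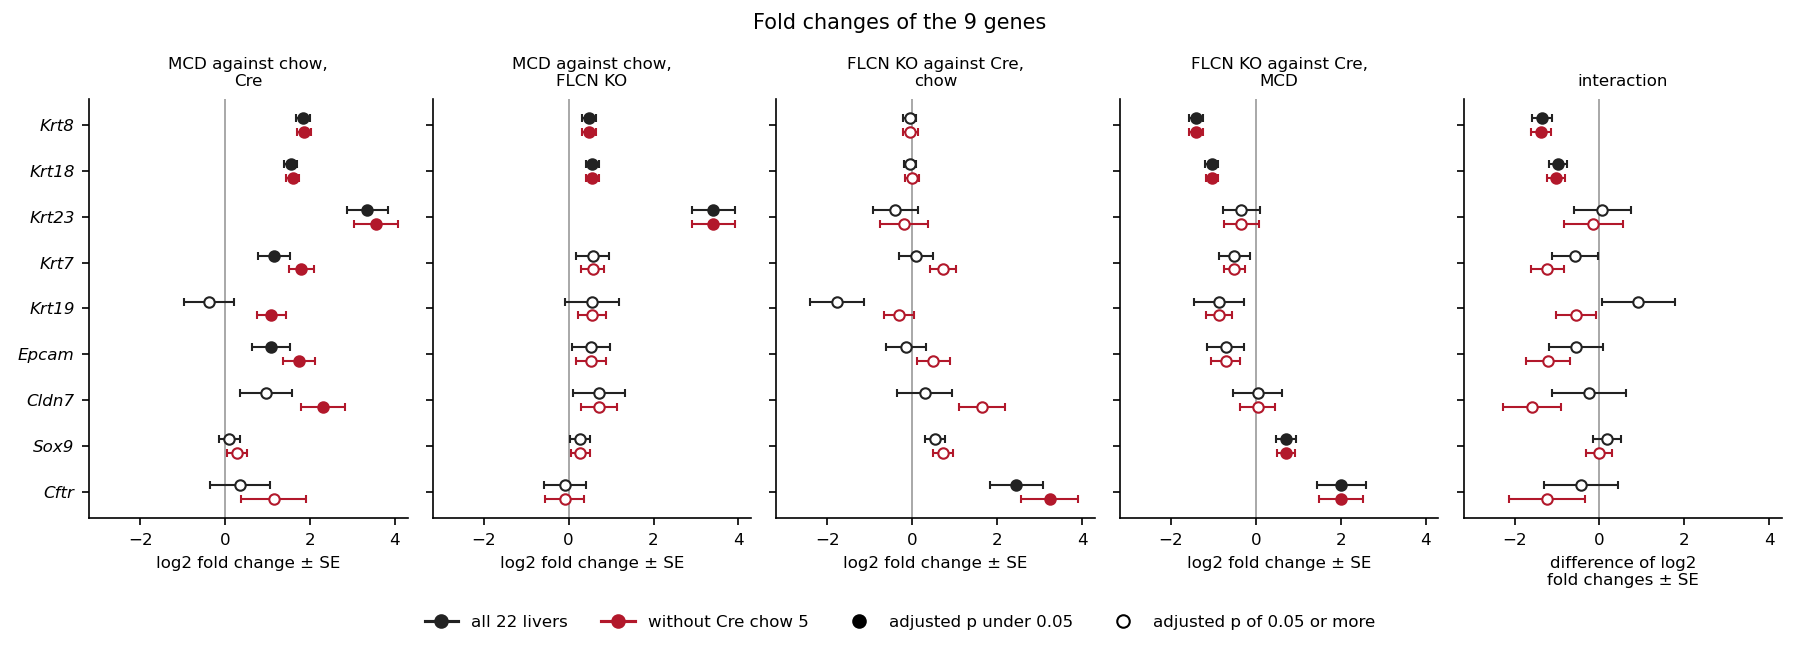
Log2 fold changes of the 9 genes in 5 comparisons from edgeR, with standard errors as bars, for all 22 livers in black and without Cre chow 5 in red, where filled points have an adjusted p under 0.05. *Krt8* and *Krt18* sit at the same place in both fits in all 5 panels, while *Krt19* with MCD in Cre mice goes from -0.37 to 1.09 and *Cldn7* from 0.97 to 2.31.

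Groups without any overlap between livers were the stricter view of the same data. With MCD in Cre mice *Krt8*, *Krt18* and *Krt23* did not overlap (all genes 32.5%), and without Cre chow 5 *Krt7*, *Epcam* and *Cldn7* did not either (all genes 33.6%). With MCD in FLCN KO mice *Krt18* and *Krt23* did not overlap (all genes 29.2%). Between genotypes none of the 9 was free of overlap on chow (all genes 6.94%), and on MCD *Krt8* and *Krt18* were lower and *Cftr* higher in every FLCN KO liver (all genes 8.61%). Over the 2 hepatocyte keratins the median log2 fold change was 1.69 with MCD in Cre mice, 0.52 with MCD in FLCN KO mice, -0.06 between genotypes on chow and -1.23 on MCD. Over the 6 duct markers it was 0.66, 0.54, 0.19 and -0.23, and over all genes tested 0.01, 0.00, -0.03 and -0.01. Without Cre chow 5 the median of the duct markers was 1.44 with MCD in Cre mice and 0.72 between genotypes on chow.

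**Figure D2:**
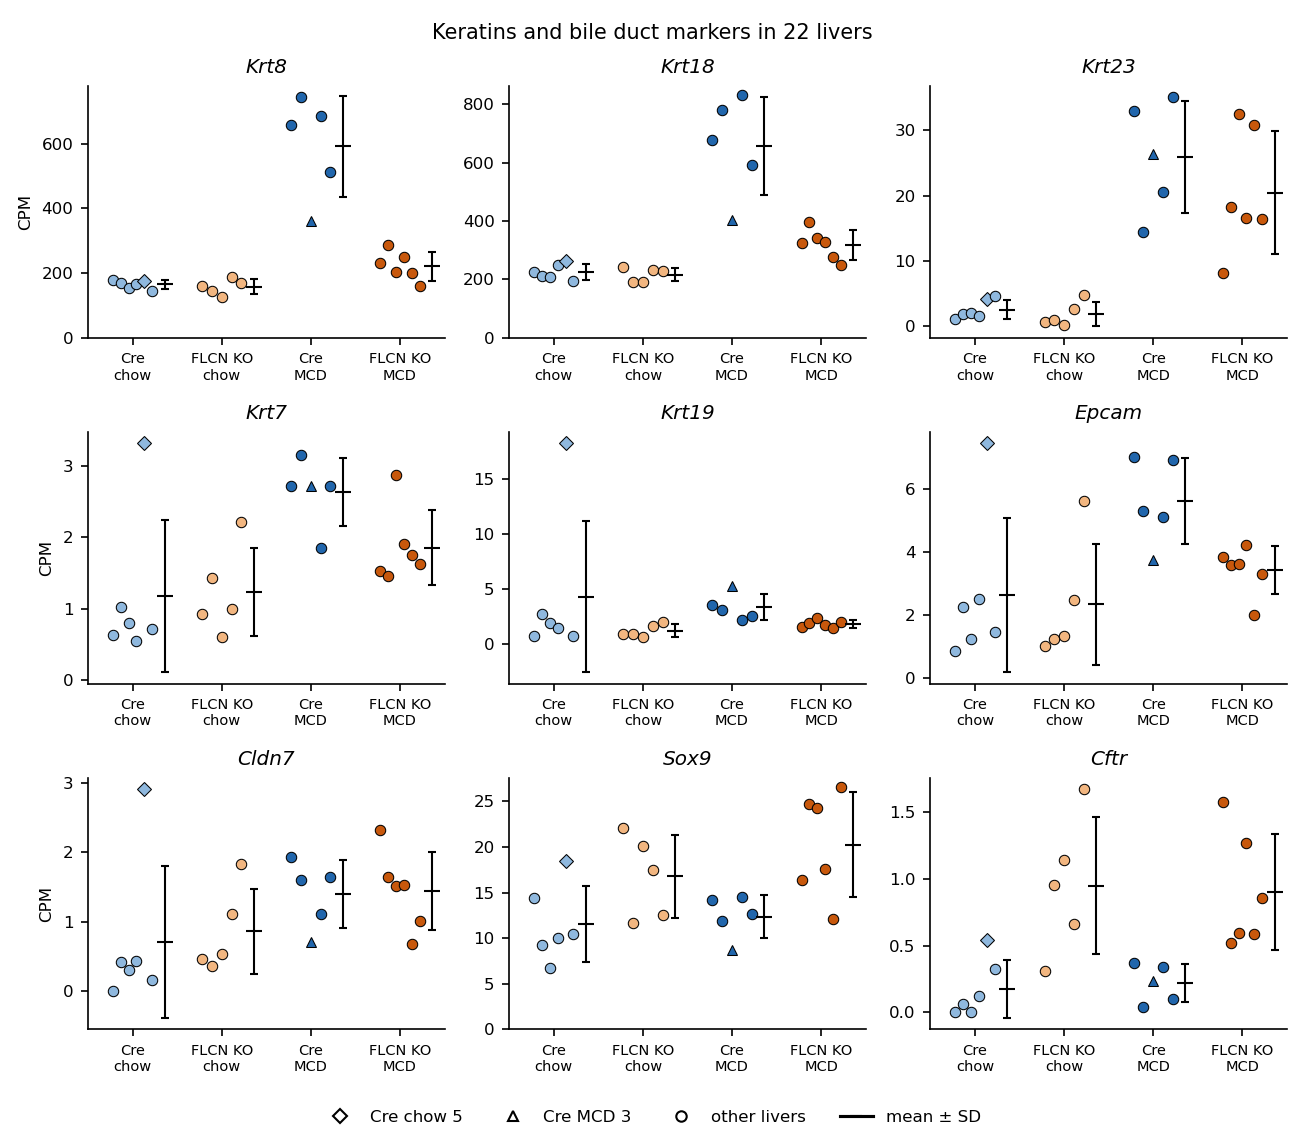
CPM of each of the 9 genes in every liver, by group, with the mean and SD of the group as bars beside the points. *Krt8* and *Krt18* separate Cre from FLCN KO livers on MCD, *Krt23* separates the diets in both genotypes, and Cre chow 5 (diamond) is the highest of all 22 livers for *Krt7*, *Krt19*, *Epcam* and *Cldn7*.

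*Krt8* (ENSMUSG00000049382) and *Krt18* (ENSMUSG00000023043), the filament pair of hepatocytes, lie side by side on chromosome 15 of GRCm38, *Krt8* at chr15:101996698-102004482 on the minus strand and *Krt18* at chr15:102028180-102032027 on the plus strand. Since the neighbours moved together, the RefSeq sequence just before each gene is shown, at chr15:102004483-102004592 on the minus strand (110 bases, 53.6% G and C) and at chr15:102027966-102028179 on the plus strand (214 bases, 60.7%), 5′ to 3′ on the strand of the gene and ending at the first annotated base:
Krt8: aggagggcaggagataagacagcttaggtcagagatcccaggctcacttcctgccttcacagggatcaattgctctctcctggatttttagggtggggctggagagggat
Krt18: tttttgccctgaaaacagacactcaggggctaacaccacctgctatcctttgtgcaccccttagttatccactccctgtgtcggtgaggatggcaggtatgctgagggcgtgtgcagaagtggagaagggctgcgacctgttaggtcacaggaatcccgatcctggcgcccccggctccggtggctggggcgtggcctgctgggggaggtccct
No capitals stand in these lines, because none of the 5 motifs searched on both strands of the 250 bases before the RefSeq start occurred in either: TATAAA (the TATA box, in 12.4% of 32841 promoters), CCAAT (33.9%), TGANTCA (AP-1, 6.75%), GGAATG (TEAD, 12.6%) and CACGTG (an E-box that TFEB and TFE3 can bind, 6.02%).

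*Krt8* had 144 to 179 CPM in Cre livers on chow (median 169) and 160, 146, 126, 189 and 170 CPM in FLCN KO livers on chow. On MCD the Cre livers had 657, 745, 360, 685 and 512 CPM and the FLCN KO livers 159 to 287 CPM (median 217). Every Cre liver on MCD was above every other liver of the study, Cre MCD 3 being the lowest of them, while the FLCN KO livers on MCD reached down into the range on chow. In Cre mice *Krt8* thus rose 3.59-fold with MCD (log2 fold change 1.84, SE 0.16, edgeR adjusted p = 6.9e-09). In FLCN KO mice it rose by 0.49 (SE 0.16, edgeR adjusted p = 0.018), or 1.40-fold. The response differed between genotypes by -1.36 (SE 0.23, edgeR adjusted p = 0.0013). On MCD the FLCN KO livers were 2.67-fold lower than the Cre livers (log2 fold change -1.42, SE 0.16, edgeR adjusted p = 3.8e-06), and on chow the log2 difference was -0.06 (edgeR adjusted p = 0.86).

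*Krt18* had 193 to 263 CPM in Cre livers on chow (median 219) and 241, 191, 191, 232 and 228 CPM in FLCN KO livers on chow. On MCD the Cre livers had 677, 779, 403, 830 and 592 CPM and the FLCN KO livers 249 to 396 CPM (median 327). The order of the groups was that of *Krt8*, with the difference that here all FLCN KO livers on MCD were above all FLCN KO livers on chow. *Krt18* rose with MCD 2.92-fold in Cre mice (log2 fold change 1.55, SE 0.15, edgeR adjusted p = 2.6e-08) and 1.47-fold in FLCN KO mice (0.56, SE 0.15, edgeR adjusted p = 0.0042), and the interaction was -0.98 (SE 0.21, edgeR adjusted p = 0.0065). On MCD it was 2.05-fold lower in FLCN KO livers (-1.04, SE 0.15, edgeR adjusted p = 5.8e-05), and on chow the difference was -0.05 (edgeR adjusted p = 0.87).

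The difference on MCD and the rise in Cre mice held for both genes in exact permutation tests, taken on both sides, of log2 CPM (adjusted p = 0.0111 for each over the 36 tests of 9 genes and 4 pairs of groups, where 0.00216 is the smallest raw p). The rise in FLCN KO mice had an adjusted exact permutation p of 0.0195 for *Krt18* and 0.0599 for *Krt8*. In edgeR the smaller rise of *Krt8* in FLCN KO mice was lost without FLCN KO chow 3 (0.41, adjusted p = 0.056), without FLCN KO MCD 2 (0.40, adjusted p = 0.052) and without the 5 chow livers with a low uniquely mapped share (0.39, adjusted p = 0.13), which are the 5 males on chow. Without the muscle-rich Cre MCD 3 the rise in Cre mice was 1.98 for *Krt8* and 1.68 for *Krt18*. Per kilobase of annotated exon *Krt18* was the more abundant of the pair in every group, with mean RPKM of 156, 151, 457 and 222 in Cre chow, FLCN KO chow, Cre MCD and FLCN KO MCD livers, against 84.3, 80.8, 302 and 113 for *Krt8*. The pseudogene *Krt8-ps*, which can share reads with *Krt8*, held 0.292 to 0.332% of the *Krt8* level in the 4 groups.

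The balance within the pair moved too. The number of *Krt8* counts per *Krt18* count, which needs no library size, was 0.738 ± 0.0569 in Cre livers on chow (SD, n = 6), 0.729 ± 0.0676 in FLCN KO livers on chow (SD, n = 5), 0.902 ± 0.0612 in Cre livers on MCD (SD, n = 5) and 0.691 ± 0.0634 in FLCN KO livers on MCD (SD, n = 6). The 5 Cre livers on MCD (0.824 to 0.970) were all above the 6 FLCN KO livers on MCD (0.593 to 0.760) and above the Cre livers on chow (0.670 to 0.809). Between diets in Cre mice the log2 ratio differed by 0.29 (exact permutation p = 0.00433, adjusted over 4 pairs of groups 0.00866), and between genotypes on MCD by -0.39 (exact permutation p = 0.00216, the smallest this design can give, adjusted 0.00866). Between diets in FLCN KO mice the difference was -0.08 (adjusted exact permutation p = 0.482) and between genotypes on chow -0.02 (adjusted exact permutation p = 0.816).

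**Figure D3:**
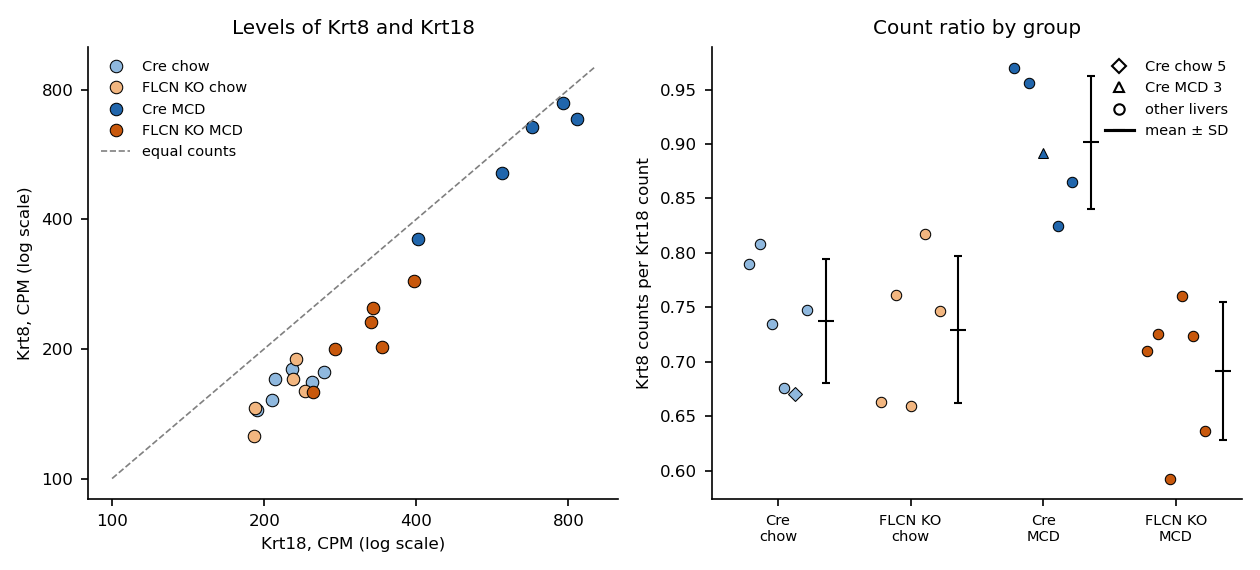
Left, *Krt8* against *Krt18* in CPM on log axes, 1 point per liver with a dashed line at equal counts; right, *Krt8* counts per *Krt18* count in each liver, with the mean and SD of each group as bars. The 5 Cre MCD livers lie nearest to the line, at ratios of 0.824 to 0.970, and all other livers lie at or below 0.817.

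*Krt23* (ENSMUSG00000006777, chr11:99477974-99493137, minus strand), a type I keratin that is nearly silent in healthy liver, was the gene of the 9 with the steepest response to the diet and had no genotype call. The RefSeq sequence before it, at chr11:99493138-99493370 on the minus strand (233 bases, 52.8% G and C), is shown because it was the only one of the 3 keratins described so far with a motif match, the CACGTG in capitals at 169 to 164 bases before the RefSeq start:
Krt23: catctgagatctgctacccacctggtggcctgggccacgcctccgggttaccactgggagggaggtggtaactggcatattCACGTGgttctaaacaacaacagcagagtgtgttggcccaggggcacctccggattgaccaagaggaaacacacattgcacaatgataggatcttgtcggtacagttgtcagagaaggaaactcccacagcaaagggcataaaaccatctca
*Krt23* had 1.19 to 4.58 CPM in Cre livers on chow (median 1.93) and 0.623, 0.951, 0.269, 2.65 and 4.74 CPM in FLCN KO livers on chow. On MCD it had 32.9, 14.5, 26.4, 20.5 and 35.0 CPM in Cre livers and 8.13 to 32.5 CPM in FLCN KO livers (median 17.4). Every liver on MCD was above every liver on chow, and within each diet the genotypes overlapped over most of their range. The rise was 10.2-fold in Cre mice (log2 fold change 3.35, SE 0.48, edgeR adjusted p = 5.5e-06) and 10.6-fold in FLCN KO mice (3.41, SE 0.51, edgeR adjusted p = 1.7e-05). The interaction of 0.06 (SE 0.67, edgeR adjusted p = 0.97) has a wide error, so the responses of the genotypes are not shown to be equal. Between genotypes the log2 difference was -0.40 on chow (SE 0.53, edgeR adjusted p = 0.70) and -0.34 on MCD (SE 0.43, edgeR adjusted p = 0.65).

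The duct markers *Krt7*, *Krt19*, *Epcam* and *Cldn7* were all low, and on chow 1 liver decided how they looked. Cre chow 5 had the highest level of each of the 4 genes among all 22 livers. *Krt19* (ENSMUSG00000020911, chr11:100140810-100148665), a type I keratin of ducts, was there 11.2-fold above the other 5 Cre livers on chow pooled (95% interval 9.01 to 13.996, exact and for counting error only), and *Cldn7* (ENSMUSG00000018569, chr11:69964779-69967885), a tight junction protein, 10.3-fold (5.97 to 18.2). *Epcam* (ENSMUSG00000045394, chr17:87635979-87651129), an epithelial adhesion molecule, was 4.35-fold above them and *Krt7* (ENSMUSG00000023039, chr15:101411043-101430313), the type II partner of *Krt19*, 4.39-fold. Of the other members *Krt23* was 1.94-fold and *Sox9* 1.86-fold above, while *Krt18* (1.21-fold) and *Krt8* (1.08-fold) were close to the other livers. *Cftr* had 8 counts there and 7 in the other 5 together, a ratio of 5.74 with an interval of 1.82 to 18.6.

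The excess in Cre chow 5 did not extend to every duct gene. The matrix metalloproteinase *Mmp7* was 25.8-fold, the mucin *Muc1* 18.3-fold and the tetraspanin *Tspan8* 7.02-fold above the other 5 livers pooled. The claudin *Cldn4* had 9 counts there and 3 in the others together, a ratio of 15.1 with an interval of 3.76 to 86.5. *Dmbt1*, a secreted mucin-like protein, had 325 CPM there and 0.0609 to 13.5 CPM in the others. Osteopontin *Spp1* (1.06-fold) and the cilium gene *Pkhd1* (0.777-fold) were near the other livers, as was albumin (0.796-fold). Of 8 gallbladder and gut epithelial markers 1 was at 0 in Cre chow 5, against 3 or 4 in each other Cre liver on chow. The trefoil factor *Tff2* had 2.10 CPM there and 0 to 0.364 CPM in the others (31 counts against 9 in all, a ratio of 17.3 with an interval of 8.03 to 41.3), the villus protein *Vil1* 1.22 against 0.0791 to 0.364 CPM (5.65-fold, interval 2.72 to 11.8) and the galectin *Lgals4* 19.4 against 3.48 to 15.2 CPM (1.97-fold). The sum of 141 CPM lay within the 107 to 144 CPM of the others, since most of it was *Fabp2*, a fatty acid binding protein, at 118 CPM (1.07-fold). The 6 mesothelial markers summed to 2.71 CPM, the lowest of the group, and the 6 exocrine pancreas markers to 0.271 CPM with 5 of them at 0. Where the duct RNA of this liver came from was not tested.

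**Figure D4:**
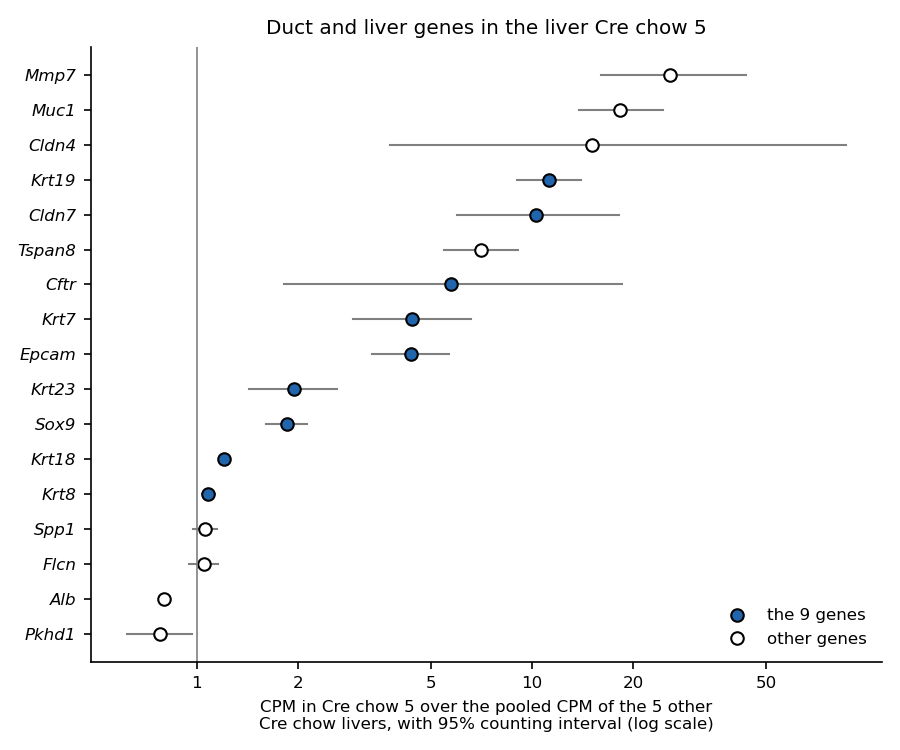
CPM in Cre chow 5 divided by the pooled CPM of the other 5 Cre chow livers, on a log axis, with exact 95% intervals for counting error as bars, for the 9 genes (filled) and 8 other genes (open), with a line at 1. *Mmp7*, *Muc1*, *Krt19* and *Cldn7* lie at 10.3 or higher, *Cldn4* and *Cftr* have wide intervals, and *Krt8*, *Spp1*, *Alb* and *Pkhd1* lie near the line.

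With MCD the duct keratins and junction genes were higher in Cre livers once that liver was set apart. *Krt7* had 0.548 to 1.03 CPM in the other 5 Cre livers on chow and 3.32 CPM in Cre chow 5, against 2.72, 3.15, 2.72, 1.84 and 2.71 CPM on MCD. Its log2 fold change was 1.15 with all livers (SE 0.38, edgeR adjusted p = 0.013) and 1.80 without Cre chow 5 (edgeR adjusted p = 3.1e-05). *Epcam* had 0.870 to 2.49 CPM in the other 5 Cre livers on chow and 7.44 CPM in Cre chow 5, against 6.9997, 5.30, 3.75, 5.09 and 6.92 CPM on MCD. Both genes were thus above all other Cre chow livers in every Cre liver on MCD and overlapped only with Cre chow 5. For *Epcam* the change was 1.09 (SE 0.44, edgeR adjusted p = 0.041) with all livers and 1.74 without Cre chow 5 (edgeR adjusted p = 7.0e-04). The first of these calls was thin: leaving out Cre chow 1, 2, 3, 4 or 6 or Cre MCD 1, 2, 4 or 5 moved its adjusted p to between 0.053 and 0.087, with log2 fold changes of 0.91 to 1.12.

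*Cldn7* had 0 to 0.426 CPM in the other 5 Cre livers on chow and 2.91 CPM in Cre chow 5, against 1.94, 1.59, 0.703, 1.12 and 1.64 CPM on MCD. *Krt19* had 0.723 to 2.73 CPM in the other 5 and 18.3 CPM in Cre chow 5, against 3.54, 3.10, 5.30, 2.23 and 2.61 CPM on MCD. In edgeR with all livers neither was called, at log2 fold changes of 0.97 (SE 0.62, edgeR adjusted p = 0.19) and -0.37 (SE 0.58, edgeR adjusted p = 0.61). With all livers *Cldn7* was called by limma-voom (1.91, limma-voom adjusted p = 0.014) and not by DESeq2 (0.995, DESeq2 adjusted p = 0.16). It was also called without the 5 chow livers with a low uniquely mapped share (1.83, edgeR adjusted p = 0.0067). Without Cre chow 5 both genes were called, at 2.31 (edgeR adjusted p = 8.7e-04) and 1.09 (edgeR adjusted p = 0.0089), and the sign of *Krt19* turned. In that fit 7 of the 9 genes were called with MCD in Cre mice, all but *Sox9* and *Cftr*, where 54.9% of all genes were called. In exact permutation tests with all livers none of the 4 passed, at an adjusted p of 0.0519 for *Krt7*, 0.0623 for *Epcam*, 0.121 for *Cldn7* and 0.637 for *Krt19*. In exact permutation tests without that liver *Krt7*, *Epcam* and *Cldn7* had an adjusted p of 0.0238 each and *Krt19* of 0.0504. That choice was made with the values of this liver known.

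In FLCN KO mice the same 4 genes were not called with MCD. On chow these livers had 0.604 to 2.21 CPM of *Krt7*, 0.672 to 2.05 of *Krt19*, 1.01 to 5.60 of *Epcam* and 0.356 to 1.83 of *Cldn7*, and FLCN KO chow 5 was the highest for each. On MCD they had medians of 1.69, 1.83, 3.60 and 1.52 CPM, in the same order. The log2 fold changes were 0.57 for *Krt7* (SE 0.38, edgeR adjusted p = 0.24), 0.54 for *Krt19* (edgeR adjusted p = 0.51), 0.53 for *Epcam* (edgeR adjusted p = 0.36) and 0.72 for *Cldn7* (edgeR adjusted p = 0.36). Without FLCN KO chow 5 *Epcam* passed, at 1.15 (edgeR adjusted p = 0.044), and *Krt7* passed without Cre chow 5 and with sex as a covariate, at 0.65 (edgeR adjusted p = 0.033). Within FLCN KO males all 4 were higher on MCD without overlap, by 1.00 for *Krt7*, 1.02 for *Krt19* and 1.64 for both *Epcam* and *Cldn7*, from 2 livers on chow and 3 on MCD, and in females all 4 overlapped (0.13 to 0.43). The 2 FLCN KO males on chow were among the 5 chow livers with a low uniquely mapped share. Without those 5 livers the changes in FLCN KO mice were 0.26 for *Krt7*, 0.24 for *Krt19*, 0.13 for *Epcam* and 0.38 for *Cldn7*, none of them called. The difference between the sexes was not tested. The interaction was not called for any duct marker with all livers or without Cre chow 5, where *Krt7* was nearest (-1.23, edgeR adjusted p = 0.062) and passed when sex was also a covariate. With all livers a difference in response between genotypes was thus not shown for them.

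Between genotypes on MCD, *Krt19* and *Epcam* were lower in FLCN KO livers in some fits and not in others. *Krt19* had 1.51 to 2.38 CPM in FLCN KO livers (median 1.83) against 2.23 to 5.30 in Cre livers, and *Epcam* 2.00 to 4.23 CPM (median 3.60) against 3.75 to 6.9997. In edgeR with all groups the log2 differences were -0.86 (SE 0.59, adjusted p = 0.36) and -0.71 (SE 0.43, adjusted p = 0.29). Without Cre chow 5 they were still not called (-0.86, edgeR adjusted p = 0.062, and -0.71, edgeR adjusted p = 0.17), nor were they with DESeq2 or limma-voom and all livers. *Krt19* passed without Cre chow 5 once sex was a covariate (-0.85, edgeR adjusted p = 0.047) and without the 5 low-mapped chow livers (-0.86, edgeR adjusted p = 0.018). A fit of the MCD groups alone gave -0.86 (edgeR adjusted p = 0.024) and -0.71 (edgeR adjusted p = 0.039), and the exact permutation test on log2 CPM gave -0.78 and -0.69 (adjusted p = 0.0260 and 0.0354). For *Krt7* the difference was -0.50 (edgeR adjusted p = 0.38) and for *Cldn7* 0.05 (edgeR adjusted p = 0.97). On chow *Krt19* was -1.77 (SE 0.64, edgeR adjusted p = 0.087) with all livers and -0.31 without Cre chow 5 (edgeR adjusted p = 0.67).

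*Sox9* and *Cftr* were the duct markers with a genotype call with all livers, higher in FLCN KO livers, and neither was called with the diet. *Sox9* (ENSMUSG00000000567, chr11:112782224-112787760), a transcription factor of duct cells and of some hepatocytes near the portal tract, had 6.73 to 18.5 CPM in Cre livers on chow (median 10.2) and 22.1, 11.7, 20.1, 17.5 and 12.5 CPM in FLCN KO livers on chow. On MCD it had 14.2, 11.9, 8.67, 14.6 and 12.7 CPM in Cre livers and 12.1 to 26.6 CPM in FLCN KO livers (median 20.9). The genotypes overlapped on both diets, with the lowest values of each diet in Cre livers and the highest in FLCN KO livers. The difference was called on MCD (log2 fold change 0.71, SE 0.24, edgeR adjusted p = 0.044) and not on chow (0.54, SE 0.24, edgeR adjusted p = 0.17), while the interaction was 0.17 (edgeR adjusted p = 0.80), so the diets were not shown to differ. The call on MCD was lost, with differences of 0.61 to 0.78 and adjusted p of 0.051 to 0.11, without any 1 of Cre MCD 1 to 5, FLCN KO chow 4 or FLCN KO MCD 2, 3 or 6, and its adjusted exact permutation p was 0.0612.

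*Cftr* (ENSMUSG00000041301, chr6:18170687-18322768), the chloride channel of duct cells, was near the limit of detection. It had 0 to 0.541 CPM in Cre livers on chow (median 0.0912), the highest being Cre chow 5, and 0.371, 0.0431, 0.234, 0.340 and 0.102 CPM in Cre livers on MCD. In FLCN KO livers it had 0.311, 0.951, 1.14, 0.662 and 1.67 CPM on chow and 0.517 to 1.58 CPM on MCD (median 0.727). These are 0 to 9 counts per Cre liver and 4 to 32 per FLCN KO liver, and on MCD no FLCN KO liver was as low as any Cre liver. The log2 difference was 2.45 on chow (SE 0.63, edgeR adjusted p = 0.016) and 2.01 on MCD (SE 0.58, edgeR adjusted p = 0.020), and the adjusted exact permutation p was 0.0354 and 0.0111. Since the filter passed *Cftr* through the livers where it was high, these tests are a description.

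Sexes were compared within each group of 2 or 3 livers, without a test. The 5 males on chow were also the 5 livers with a low uniquely mapped share. *Krt8* and *Krt18* were lower in FLCN KO livers on MCD without overlap in both sexes, with log2 differences of -0.96 and -0.73 in males and of -1.76 and -1.24 in females. The rise of *Krt8* with MCD in FLCN KO mice was 0.85 in males, without overlap, and 0.15 in females, with overlap. *Krt23* rose with MCD without overlap in both sexes and genotypes, by 2.98 to 4.70, and on chow it was lower in FLCN KO males (-2.50, without overlap) and not in females (0.36, with overlap). On MCD it was also lower in FLCN KO males (-0.78, without overlap), with -0.0061 in females, with overlap. *Krt19* on MCD was lower in FLCN KO livers without overlap in males (-0.96) and females (-0.63), and *Sox9* was higher by 0.77 in males, without overlap, and by 0.62 in females, with overlap. On chow *Sox9* was higher in FLCN KO livers without overlap within each sex, by 0.58 in males and 0.67 in females, although the genotypes overlapped when the sexes were pooled. *Cldn7* on MCD went opposite ways, higher in FLCN KO males by 0.93 and lower in FLCN KO females (-0.70), without overlap in either.

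Within a group, 2 pairs of genes rose and fell together from liver to liver. Pearson's r of the deviations from group means was 0.903 for *Krt8* and *Krt18* (Spearman's rho 0.805, adjusted permutation p = 0.00018 over 36 pairs of genes, 22 livers) and 0.926 for *Epcam* and *Cldn7* (rho 0.893, adjusted permutation p = 0.00018). Leaving out the 2 livers farthest from the median gave 0.813 and 0.878, and leaving out Cre chow 5 gave 0.911 and 0.876. *Krt7* and *Krt19*, the duct filament pair, had an r of 0.835 (rho 0.745, adjusted permutation p = 0.0096), which rested in part on Cre chow 5: without it r was 0.593 (adjusted permutation p = 0.117). These p-values are of Pearson's r, by which 7 pairs passed an adjusted p of 0.05 with all livers and the first 2 did without Cre chow 5. By Spearman's rho with all livers only the pairs named here passed (adjusted permutation p = 0.0027, 0.00036 and 0.0114, in the order given). Without Cre chow 5 the first 2 again passed by rho. The livers share the total they were scaled to, which also links genes.

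The genes most alike across all 22 livers were ranked by Pearson's r of log2 CPM among 12847 genes with a mean of at least 1 CPM, as a description. For *Krt18* they were *Krt8* (0.982), the dynein light chain *Dynll1* (0.949), the phosphatidate phosphatase *Lpin3* (0.940), the membrane-binding annexin *Anxa2* (0.940) and the surface receptor *Slamf9* (0.937), and without Cre chow 5 the heme transporter *Slc48a1* (0.942) took the place of *Slamf9*. *Anxa2* had mean levels of 17.1 CPM in Cre chow, 19.7 in FLCN KO chow, 191 in Cre MCD and 70.3 in FLCN KO MCD livers, and *Dynll1* 11.5, 11.5, 51.0 and 21.9 CPM. For *Krt23* they were the axonemal dynein *Dnah11* (0.926), *Gm44101* (0.923), *Plppr1* (0.920), *Ankrd13b* (0.919) and *Gm7575* (0.916), with *Stap1* (0.924) among them without Cre chow 5. For *Epcam* they were the epithelial transcription factor *Ehf* (0.934), the protease inhibitor *Spint1* (0.902), *Cldn7* (0.871), *Prr15l* (0.861) and *Scara3* (0.858), with *Ccdc88c* (0.887) among them without Cre chow 5. The 3 sets share no gene.

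**Figure D5:**
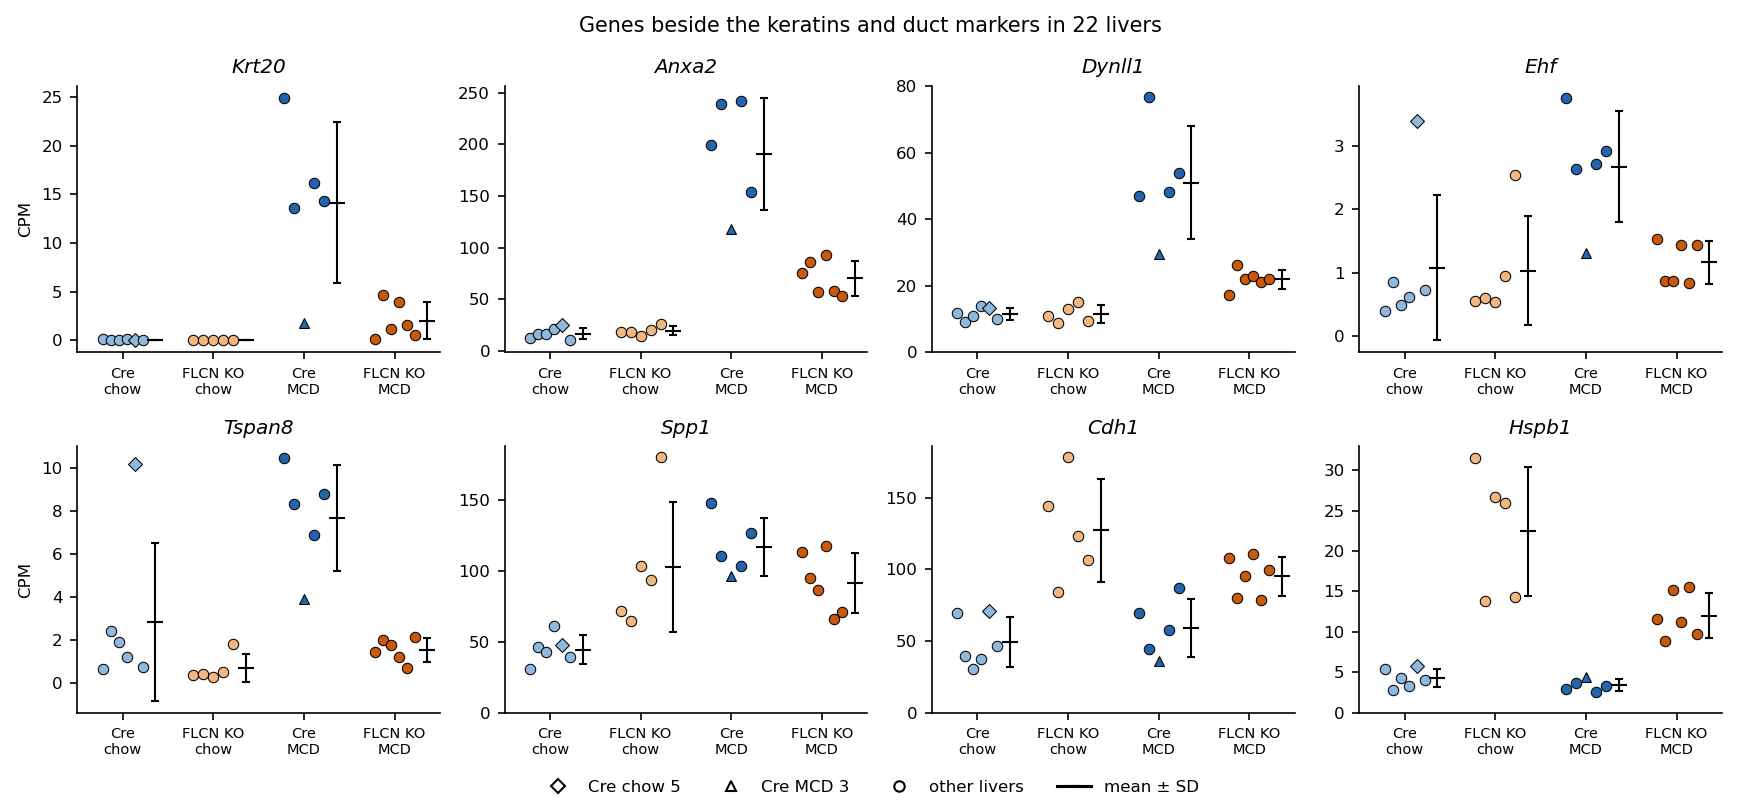
CPM in every liver by group, with the mean and SD as bars, of the keratin *Krt20*, of 3 genes that resemble *Krt18* (*Anxa2*, *Dynll1*) or *Epcam* (*Ehf*), of the duct-list genes *Tspan8*, *Spp1* and *Cdh1*, and of the small heat shock protein *Hspb1*. *Krt20* and *Anxa2* are highest in Cre MCD livers, and *Hspb1* is higher in every FLCN KO liver than in any Cre liver.

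The table has 54 keratin rows, of which 24 had no count in any liver and 8 had a mean of at least 1 CPM in a group: the 5 keratins above and *Krt10*, *Krt20* and *Krt25*. *Krt20*, a keratin of gut epithelium, had 2 counts in all in Cre livers on chow and 0 in FLCN KO livers on chow. On MCD it had 24.9, 13.6, 1.73, 16.2 and 14.3 CPM in Cre livers and 0.148 to 4.69 CPM in FLCN KO livers (median 1.35). Cre MCD 3 was again the lowest of its group and the only Cre liver within the FLCN KO range. On MCD it was lower in FLCN KO livers (log2 fold change -2.80, SE 0.62, edgeR adjusted p = 0.0049). Against the same genotype on chow, taken at a floor of 3 counts per library, Cre livers on MCD were at least 69.0-fold and FLCN KO livers at least 10.6-fold higher. Its interaction had a wide error (-0.69, SE 2.15, edgeR adjusted p = 0.88), so a difference in response between genotypes was not shown. *Krt25*, a hair follicle keratin, was at 0 in all livers on chow and averaged 1.39 CPM in Cre livers on MCD (SD 0.677, n = 5) and 1.22 CPM in FLCN KO livers on MCD (SD 0.592, n = 6), at least 6.75-fold and 6.49-fold higher than the floor. *Krt10*, a keratin of skin, had mean levels of 1.46 to 2.12 CPM in the 4 groups.

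Of 22 other bile duct genes 20 could be tested, and in Cre mice 8 rose and 3 fell with MCD (11 and 3 without Cre chow 5), at a median log2 fold change of 0.81 with all livers and 1.24 without Cre chow 5, where with all livers 57.5% of all genes were called and without Cre chow 5 54.9%. The gamma-glutamyl transferase *Ggt1* was called at 4.86, with 0 to 0.135 CPM on chow and 0.0937 to 5.60 CPM on MCD (median 1.28). Its highest value was in Cre MCD 2, without which it was under the filter and not tested. *Cldn4* rose by 4.40, from 0.135 to 3.00 CPM on average, with 9 counts in Cre chow 5 and 3 in the other Cre livers on chow together. Like *Ggt1*, it passed the filter through the livers on MCD, where it was high. The diet calls of both, and that of *Cldn4* in FLCN KO mice, were thus partly fixed by that filter. *Dmbt1* fell by 8.14 (edgeR adjusted p = 0.0023), which rests on the 325 CPM of Cre chow 5 and was -4.07 without it (edgeR adjusted p = 0.032). In FLCN KO mice 4 rose, led by *Cldn4* (3.52) and *Mmp7* (3.04), and 2 fell, led by the bile acid transporter *Slc10a2* (-1.87), at a list median of 0.10, and this share was under the 45.0% of all genes. *Bicc1*, *Tm4sf4*, *Mmp7* and *Cldn4* rose in both genotypes.

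Between genotypes on chow the adhesion molecule *Cdh1* (E-cadherin) and *Spp1* were higher in FLCN KO livers. *Cdh1* had 30.7 to 71.2 CPM in Cre livers (median 43.1) and 144, 84.4, 178, 123 and 106 CPM in FLCN KO livers, without overlap (log2 fold change 1.37, edgeR adjusted p = 5.4e-04). *Spp1*, a secreted phosphoprotein of duct cells and macrophages, had 30.5 to 61.0 CPM in Cre livers (median 44.4) and 71.3, 64.8, 104, 93.2 and 180 CPM in FLCN KO livers, also without overlap (1.21, edgeR adjusted p = 0.0012). On MCD *Cdh1* was higher in FLCN KO livers (0.69, edgeR adjusted p = 0.047), but not without Cre MCD 3 (0.56, edgeR adjusted p = 0.11), while *Spp1* had its own interaction (-1.56, edgeR adjusted p = 0.0047) and rose with MCD in Cre mice (1.39), from a mean of 44.5 to 117 CPM, against means of 103 and 91.6 CPM in FLCN KO livers. On MCD *Tspan8* was lower in FLCN KO livers, 1.55 against 7.67 CPM on average (-2.30, edgeR adjusted p = 0.0063). So were *Slc10a2* (-1.78, edgeR adjusted p = 0.014) and the epithelial factor *Elf3* (-1.07, edgeR adjusted p = 0.045), and the polycystin *Pkd2* (0.50, edgeR adjusted p = 0.040) was higher. In all, 3 of the 20 were higher and 3 lower on MCD, at a median of -0.44, against 16.6% of all genes called, and without Cre MCD 3 2 were higher and 5 lower. With sex as a covariate 2 were higher and 2 lower, and without Cre chow 5 4 were higher and 4 lower. The large values of *Dmbt1* on chow (-9.99) and in the interaction (14.8) rest on Cre chow 5, and the first was not called without it (edgeR adjusted p = 0.079).

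The Notch pathway, which directs duct cell fate in the developing liver, and the Hippo pathway, which holds back the factors YAP and TAZ, were listed as pathways upstream of duct genes. Of 11 Notch genes tested MCD raised 1 and lowered 5 in Cre mice, and raised 0 and lowered 4 in FLCN KO mice, at medians of -0.37 and -0.48, where 57.5% and 45.0% of all genes were called (28.2% and 22.5% lower). The effector *Heyl* fell in both (by 1.18 and 1.33), the ligand *Dll4* fell in Cre mice (by 1.15), the receptor *Notch3* in FLCN KO mice (by 1.26), and the effector *Hey1* rose in Cre mice (1.04). *Hey1* averaged 0.419 CPM in Cre and 0.557 CPM in FLCN KO livers on chow, against 0.865 and 0.832 CPM on MCD. It passed the filter through the livers on MCD, so its diet call was partly fixed by that filter. Of 13 Hippo genes and YAP targets 4 rose and 3 fell in Cre mice and 2 rose and 2 fell in FLCN KO mice, at medians of 0.09 and 0.11, against the same shares of all genes. Without Cre MCD 3 the number that fell in Cre mice was 5, with the kinase *Lats2* and *Amotl2* added. The YAP target *Ccn2* rose in both (2.01 and 1.51), its fellow target *Ankrd1* in Cre mice (2.72), and the YAP antagonist *Vgll4* fell in both (by 1.29 and 1.07). Between genotypes neither list had a call on chow or MCD or for the interaction with all livers, against 8.62, 16.6 and 8.83% of all genes. Without Cre MCD 3 each had 1 gene higher in FLCN KO livers on MCD, the Notch ligand *Jag1* (0.58) and the Hippo regulator *Nf2* (0.31).

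Proteins that hold keratin filaments moved in both directions. Of 9 linker and desmosome genes MCD raised 5 and lowered 2 in Cre mice, and raised 3 and lowered 1 in FLCN KO mice, at medians of 0.28 and 0.18, against 57.5% and 45.0% of all genes called. Plectin (*Plec*), which ties filaments to membranes, had mean levels of 55.0 CPM on chow and 128 on MCD in Cre livers, and 60.3 and 86.3 CPM in FLCN KO livers. It rose by 1.22 in Cre mice and 0.52 in FLCN KO mice, was lower in FLCN KO livers on MCD (-0.57, edgeR adjusted p = 0.014), and its interaction was -0.70 (edgeR adjusted p = 0.049, and 0.066 without Cre chow 5). It was the only gene of the list with a genotype call. The desmosome cadherin *Dsc2* fell in both (by 1.06 and 0.67), and the plakins *Eppk1* (1.05 and 0.90) and *Ppl* (0.94 and 0.71) rose in both, while *Evpl* was called in Cre mice (1.55). *Evpl* averaged 0.336 CPM in Cre livers on chow and 1.01 CPM on MCD. It passed the filter through the Cre livers on MCD, so this call was partly fixed by that filter.

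Of 7 genes tested for proteins that gather with keratins in aggregates, 3 rose with MCD in Cre mice (2 without Cre MCD 3), and in FLCN KO mice 1 rose and 2 fell, against 57.5% and 45.0% of all genes called. The autophagy receptor *Sqstm1* (p62) rose by 0.87 in both genotypes, and the crosslinking enzyme *Tgm2* by 0.75 in Cre mice. *Hspb1* was higher in FLCN KO livers on both diets, without overlap. It had 2.85 to 5.82 CPM in Cre livers on chow (median 4.14), 31.5, 13.8, 26.7, 25.9 and 14.3 CPM in FLCN KO livers on chow, 2.88, 3.71, 4.45, 2.57 and 3.28 CPM in Cre livers on MCD and 8.87 to 15.6 CPM in FLCN KO livers on MCD (median 11.4). The log2 differences were 2.39 on chow (edgeR adjusted p = 6.2e-07) and 1.83 on MCD (edgeR adjusted p = 2.1e-05), and with MCD it fell by 0.90 in FLCN KO mice. *Tgm2* was higher in FLCN KO livers on chow (0.72, edgeR adjusted p = 0.0041), with an interaction of -0.69 (edgeR adjusted p = 0.047). This interaction was not called without Cre chow 5, nor without Cre MCD 3. *Cryab*, a small heat shock protein of muscle and other tissues, was called with MCD in Cre mice (1.40, edgeR adjusted p = 0.030) and between genotypes on MCD (-1.77, edgeR adjusted p = 0.026), and without the muscle-rich Cre MCD 3 these were -0.21 (edgeR adjusted p = 0.50) and -0.17 (edgeR adjusted p = 0.70).

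Markers of other cells moved beside these genes. Of 8 hepatocyte markers 6 fell with MCD in each genotype and 0 rose, where 28.2% of all genes fell in Cre and 22.5% in FLCN KO mice, at medians of -0.84 in Cre and -0.65 in FLCN KO mice, led by the secreted proteins *Ttr* (-1.28) and *Fga* (-1.20) in Cre and *Fga* (-1.09) and the enzyme *Tat* (-0.98) in FLCN KO mice. Between genotypes 2 of the 8 were lower in FLCN KO livers on chow (3.10% of all genes), *Ttr* (-0.46) and the receptor *Asgr1* (-0.31). On MCD 2 were lower (8.53% of all genes), *Tat* (-0.90, edgeR adjusted p = 0.036, and 0.10 without Cre MCD 3) and *Asgr1* (-0.28), and *Ttr* had an interaction of 0.60. The most abundant of them, *Alb*, had medians of 98713, 94339, 74966 and 56347 CPM in Cre chow, FLCN KO chow, Cre MCD and FLCN KO MCD livers. Of all genes 29.3% rose with MCD in Cre and 22.5% in FLCN KO mice. The 5 mesothelial markers tested included 3 that rose with MCD in Cre mice (2 without Cre MCD 3, the liver with the largest sum, 31.5 CPM) and 1 in FLCN KO mice (0 without Cre chow 5), led by *Wt1* (2.18 and 1.18). Their most abundant gene, *Upk3b*, had medians of 1.16 to 2.92 CPM in the 4 groups. Of 3 gallbladder and gut markers tested 1 rose in Cre (2 without Cre chow 5 or without Cre MCD 3) and 3 in FLCN KO mice, led by *Vil1* (2.60 and 3.14), and the most abundant, *Fabp2*, had medians of 82.1 to 153 CPM. The 5 muscle markers were higher with MCD in Cre mice and lower in FLCN KO livers on MCD (3 and 0 of them without Cre MCD 3). Of these, *Acta1*, *Ckm*, *Tnnt3* and *Myh4* averaged 0.0559 to 0.577 CPM on chow and passed the filter through livers on MCD. Their diet calls were thus partly fixed by that filter. The genotype call of *Myh4*, at 0.0090 CPM in FLCN KO and 25.1 CPM in Cre livers on MCD, was too. Of the pancreas markers only *Ctrb1* could be tested, and its highest levels were 10.4 CPM in FLCN KO MCD 3 and 5.38 CPM in Cre livers on MCD. The part of these cells in the keratin and duct results was not tested, except that *Krt8*, *Krt18* and *Krt23* were called in the same comparisons without Cre chow 5 and without Cre MCD 3.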

How the data were processed

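Livers of 22 mice were measured by mRNA-seq, 1 library per mouse, in the 4 groups given by the labels. The values are raw read counts per gene deposited by the authors. Their notes name bcl2fastq, Trimmomatic, STAR, HTSeq and GRCm38, with versions, annotation release and strand setting not given in the sources used here. The adapters carry molecular identifiers and no collapsing step is stated, so counting errors cover counting only. From the counts, edgeR 4.0.16 (R 4.3.3) fitted the 4 groups with TMM sizes and a quasi-likelihood test on the 14062 genes whose counts averaged 10 or more, with Benjamini-Hochberg adjustment. The p-values measure the spread between mice. Single genes and the *Krt8* to *Krt18* ratio were also tested by exact permutation in scipy 1.17.1. The edgeR step was tested on simulated data. RPKM used the union of annotated exons of each gene (GENCODE M21), which for *Krt7* includes long isoforms, and the release need not be that of the authors. Genes on the other strand overlap *Krt8*, *Krt7* and *Cftr* and had at most 22 counts in a library.

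The 9 genes, the other gene lists and the tests were chosen with earlier results of these data known, and setting Cre chow 5 apart was part of that choice. In each list the genes named were the 3 with the largest called change, others being named after their values were seen (1 gene of the bile duct list is counted but not reported here), and the 5 genes most alike were named for *Krt18*, *Krt23* and *Epcam*. Promoter sequences are from RefSeq (GRCm38.p6), in which 7 of the 9 genes were matched, all but *Krt19* and *Sox9*. Alternatives were DESeq2 1.42.0, limma-voom (limma 3.58.1), other size factors and filters, fits of the compared groups alone, a replicate block, sex as a covariate and leaving out libraries. Of 50 pairs of libraries within groups 0 were identical.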

Additional observations from a re-analysis of the deposited data

Results flagged for a closer look

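Single livers far from the rest of their group were looked for in 40 groups of values, of which about 1 in 20 is flagged by chance, and 5 were found. Of these, 4 were in Cre chow 5, which had been singled out beforehand as rich in duct RNA, so they restate that choice and are not to be set against chance. They were *Krt7* (3.32 CPM), *Krt19* (18.3 CPM), *Epcam* (7.44 CPM) and *Cldn7* (2.91 CPM), each the highest of its group. The other was FLCN KO MCD 3, for *Krt7* (2.87 CPM), and that liver also had the largest sum of exocrine pancreas markers (25.1 CPM). Whether these belong together was not tested.

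The response to MCD differed between genotypes by the interaction test for *Krt8* (-1.36) and *Krt18* (-0.98). Between the sexes *Cldn7* on MCD went opposite ways, with log2 differences of 0.93 between FLCN KO and Cre males and -0.70 between females. The log2 ratio of *Krt8* to *Krt18* counts did so with MCD in FLCN KO mice, at 0.15 in males and -0.26 in females, with no overlap in either sex. The differences between sexes were not tested, and they rest on 2 or 3 livers a side.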

How the results depend on the processing

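The calls of *Krt8*, *Krt18* and *Krt23* in Cre mice, of *Krt8* and *Krt18* between genotypes on MCD and in the interaction, and of *Krt18* and *Krt23* in FLCN KO mice were made in all 22 fits that left out 1 liver. Between genotypes on chow the number of the 9 genes called was 1, and it was 2 with DESeq2 (with *Krt19*, -1.78, adjusted p = 0.025), 0 with only the groups compared, and 0 to 2 when 1 liver was left out: 2 without Cre chow 6 (with *Krt19*), and 0 without FLCN KO chow 5, FLCN KO MCD 1 or FLCN KO MCD 4, where *Cftr* was under the filter and not tested. Without Cre chow 5 the number of pairs correlated by Pearson's r fell from 7 to 2. The replicate numbers do not pair the livers (mean correlation of same-numbered deviations from -0.084 to 0.129). With the replicate block *Sox9* on MCD was not called (0.69, edgeR adjusted p = 0.100), *Krt19* with MCD in Cre mice was 0.19 and the *Krt23* interaction -0.042.

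Among the 9 genes, signs that turned were of values not called with all livers. Of the other listed genes, *Cryab* with MCD in Cre mice was called with all livers (1.40) and was -0.21 without Cre MCD 3. *Krt19* with MCD in Cre mice was 0.54 with limma-voom, 0.69 without the 5 chow livers of low mapped share, and 1.18 without Cre chow 5 and with sex as a covariate. Without those 5 livers, *Krt8*, *Epcam* and *Krt23* between genotypes on chow were 0.041, 0.64 and 0.64, and the interactions of *Krt19* and *Krt23* -0.44 and -0.98. Without Cre chow 5 and with sex as a covariate, *Epcam* between genotypes on chow was 0.48, and the interactions of *Krt19*, *Sox9* and *Krt23* were -0.55, -0.028 and -0.026. *Cldn7* on MCD was -0.0034 with sex as a covariate. When 1 liver was left out, the range was -0.59 to 1.09 for *Krt19* and -0.016 to 0.29 for *Sox9* with MCD in Cre mice, and -0.30 to 0.032 for *Cftr* in FLCN KO mice. Between genotypes on chow it was -0.77 to 0.50 for *Epcam*, -0.19 to 1.64 for *Cldn7*, -0.24 to 0.73 for *Krt7*, -0.13 to 0.011 for *Krt8* and -0.060 to 0.017 for the log2 ratio, and on MCD -0.14 to 0.19 for *Cldn7*. For the interaction it was -1.60 to 0.23 for *Cldn7*, -1.21 to 0.063 for *Epcam*, -0.55 to 1.16 for *Krt19*, -0.20 to 0.77 for *Krt23* and -0.011 to 0.29 for *Sox9*. The cause was not tested. *Cftr* and *Cldn7* rest on few counts. Of the other listed genes, *Wt1*, *Vil1*, *Hey1*, *Evpl* and the muscle genes *Acta1*, *Ckm*, *Tnnt3* and *Myh4* also had few counts on chow. They passed the filter through the livers on MCD, so their diet calls were partly fixed by it.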
